A study of Arabidopsis thaliana with 3 samples.

Results

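The APETALA1 and FRUITFULL clade of Arabidopsis thaliana holds 4 MADS box genes, APETALA1 (AP1, AT1G69120), CAULIFLOWER (CAL, AT1G26310), FRUITFULL (FUL, AT5G60910, annotated as AGL8) and AGL79 (AT3G30260). They were followed through the binding map of a chimeric floral MADS complex, made of SEPALLATA3 (SEP3) and an AGAMOUS protein whose Intervening (I) domain was replaced by that of AP1, here written SEP3-AG(IAP1) and in the labels SEP3-AG(API-I). A gene was called bound when the midpoint of a peak lay in its window, which took in the gene with 3000 bp before it and 1000 bp after it. All 4 of the 4 genes were bound, each by exactly 1 of the 3552 peaks, against 4945 of 27444 protein-coding genes in all (18.0%). Among genes whose windows were within 10% of the same length, 22.6% were bound for AP1, 22.4% for CAL, 22.7% for FUL and 22.7% for AGL79. The members were picked as a gene clade and not from this list, but with earlier results of the same list known, so no test was made of the count.

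The map comes from sequential DNA affinity purification followed by sequencing (seq-DAP-seq). In this assay SEP3 with a FLAG tag and AG(IAP1) with a Myc tag were produced together in vitro, taken through a purification for each tag in turn, which keeps complexes of both proteins, and incubated with sheared genomic DNA from 2-week-old seedlings. The DNA had been extracted and sheared, so the map gives what the complex bound in a tube and not occupancy in a flower. There was 1 group of 3 replicates, and the deposited list joined them into positions of 400 bp with no height, read count or p-value. No spread between replicates and no depth could therefore be given for a peak, and the list was the authors' consensus.

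AP1 gives the flower meristem its identity and, later, specifies sepals and petals. CAL is its closest relative and acts redundantly with it in the young flower meristem, while FUL works with both in the inflorescence and is needed for the growth of the fruit valves. AGL79 is the least studied of the clade. MADS proteins bind as dimers and tetramers to the CArG box, a short palindrome with CC and GG around an A and T rich centre, and AG is known to repress AP1 in the inner whorls of the flower.

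The sites described here were the 16 bp with the highest score in each peak. Whether the complex contacted them was not tested. The score came from a palindromic matrix of 16 bp fitted to the peaks of the other chromosomes. It is given in bits, the log2 ratio of the probability of the bases under the matrix and under the base composition of the peaks. Each site is printed in the direction of its gene, 5′ to 3′, and the capitals mark its core, the central 10 bp of the matrix. A core need not be a CArG box.
AP1, chr1:25987976-25987991, minus strand, TAIR10: ttgCTCAATTTGTtaa
CAL, chr1:9103353-9103368, minus strand, TAIR10: tctCCCATAAGGGcaa
FUL, chr5:24505050-24505065, minus strand, TAIR10: ataCCAAATACGGtaa
AGL79, chr3:11908931-11908946, plus strand, TAIR10: ttcACAAAAATAGaaa
The site of FUL scored 12.4 bits, that of CAL 9.59, that of AGL79 9.33 and that of AP1 8.90. Against the canonical core, CC followed by 6 bases that are A or T and then GG, the FUL core had 1 mismatch, the CAL and AGL79 cores had 2 each and the AP1 core had 3.

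The 4 peaks lay at 4 different places relative to their genes. AP1 occupies chromosome 1 from 25982294 to 25986349 on the minus strand, and its peak (25987740 to 25988139) was centred 1591 bp upstream of its start. CAL lies on the same strand of chromosome 1 from 9099994 to 9103644. Its peak (9103101 to 9103500) stretched from 144 to 543 bp after the start and so covered most of the coding part of exon 1, which ended at 318 bp, and the beginning of intron 1, where the midpoint fell. FUL occupies chromosome 5 from 24502434 to 24506269 on the minus strand, and its peak (24504873 to 24505272) was centred 1196 bp after the start, in intron 1, reaching the beginning of coding exon 2. AGL79 runs from 11908870 to 11913166 on chromosome 3, plus strand, and its peak (11908686 to 11909085) straddled the start of the gene, with the midpoint 16 bp inside the 5′ UTR. AP1 alone was no longer bound when the window was cut to 1000 bp upstream and the gene, a window in which 9.91% of all protein-coding genes were bound. The map of the windows shows that the upstream position of AP1 had no counterpart in the other genes.

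**Figure D1:**
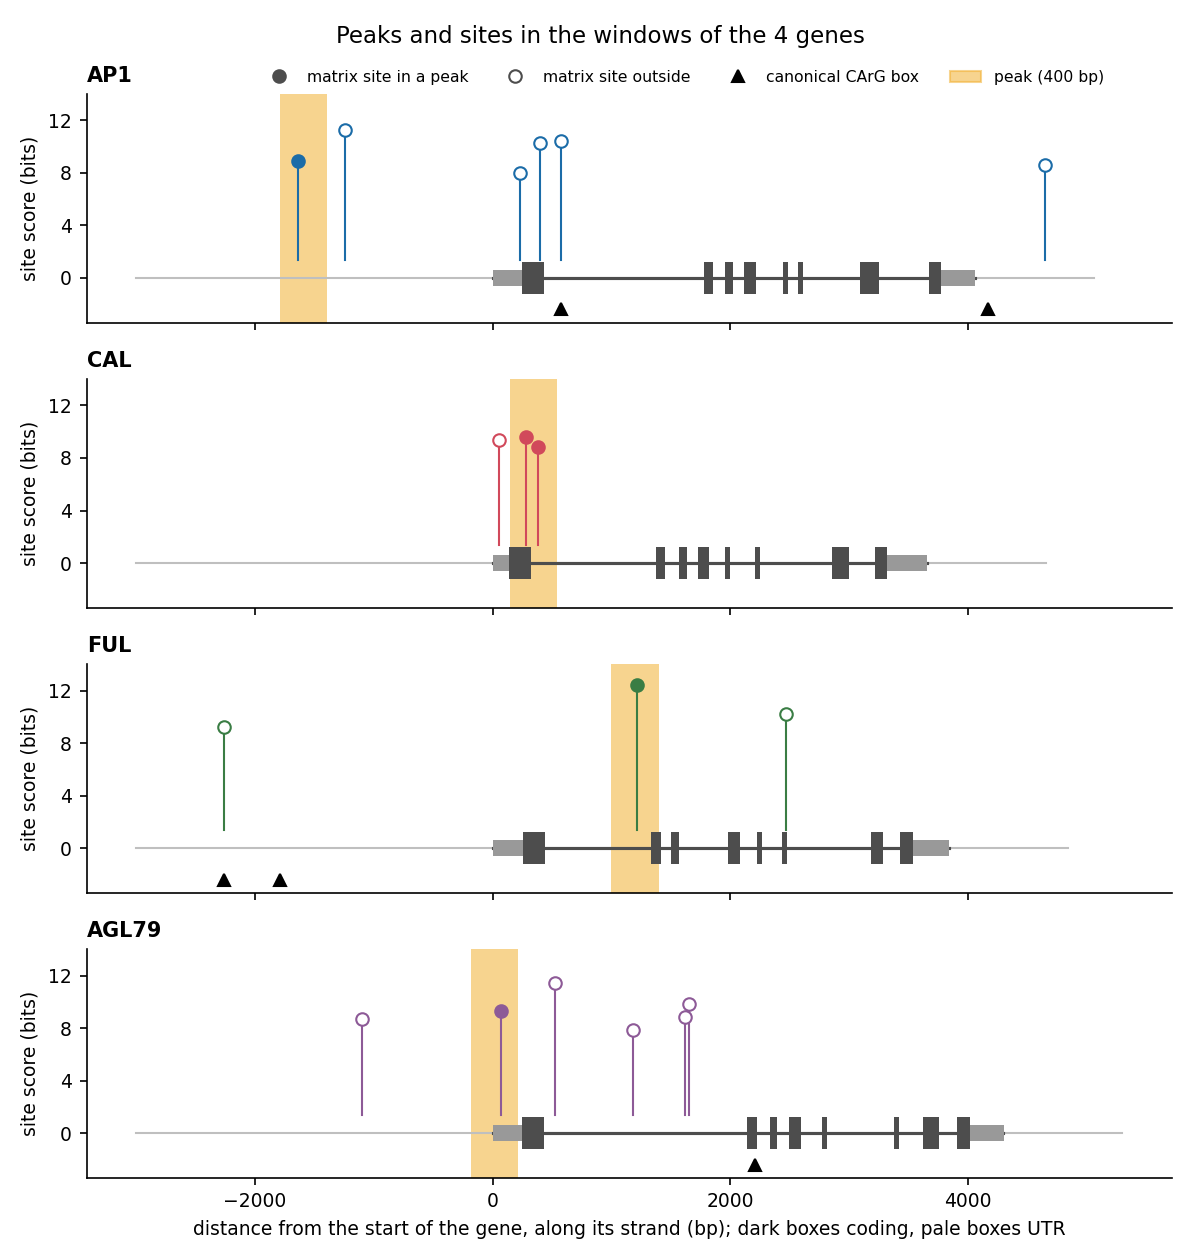
Windows of the 4 genes drawn to scale by distance from the start of the gene (x axis, bp), with exons as boxes, the peak as a yellow band, each matrix site as a stem whose height is its score (y axis, bits) and canonical CArG boxes as triangles. Each window holds 1 peak, the peak of AP1 is centred 1591 bp upstream and those of CAL and FUL in intron 1, and none of the 5 triangles falls in a band.

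The peak midpoints of CAL and FUL fell in the first intron, a part of MADS box genes often known to hold regulatory sequence. The best site in the CAL peak, however, lay in coding exon 1, at 284 bp after the start. Peak midpoints fell in the first intron of 326 of the 21943 protein-coding genes with an intron (1.49%). First introns of the clade were long, with 893 bp in FUL, 1055 bp in CAL, 1342 bp in AP1 and 1709 bp in AGL79, and each was longer than 97.5% or more of all first introns. Of the 555 genes whose first intron was at least as long as that of FUL, 39 had a midpoint there (7.03%). A midpoint in the first intron was thus more frequent among genes with a long one. AP1 and AGL79 have the longer first introns of the clade and had no midpoint in them.

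The best sites of AP1, AGL79 and CAL scored below the median of all peaks and that of FUL above it. Over the 3552 peaks, the best score had a median of 10.7 bits with quartiles of 8.71 and 12.7. The site of AP1 outscored the best site of 27.3% of the peaks, that of AGL79 33.2%, that of CAL 36.0% and that of FUL 70.7%. The median over the 4 genes was 9.46 bits. Each peak was also searched anew with a matrix of the 10 bp core alone, where the best core need not be that of the printed site. The best core then outscored 8.76% of the peaks in AGL79, 20.7% in AP1, 34.9% in CAL and 72.7% in FUL. A score is a property of the sequence and not of binding strength, for which the list holds no value.

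**Figure D2:**
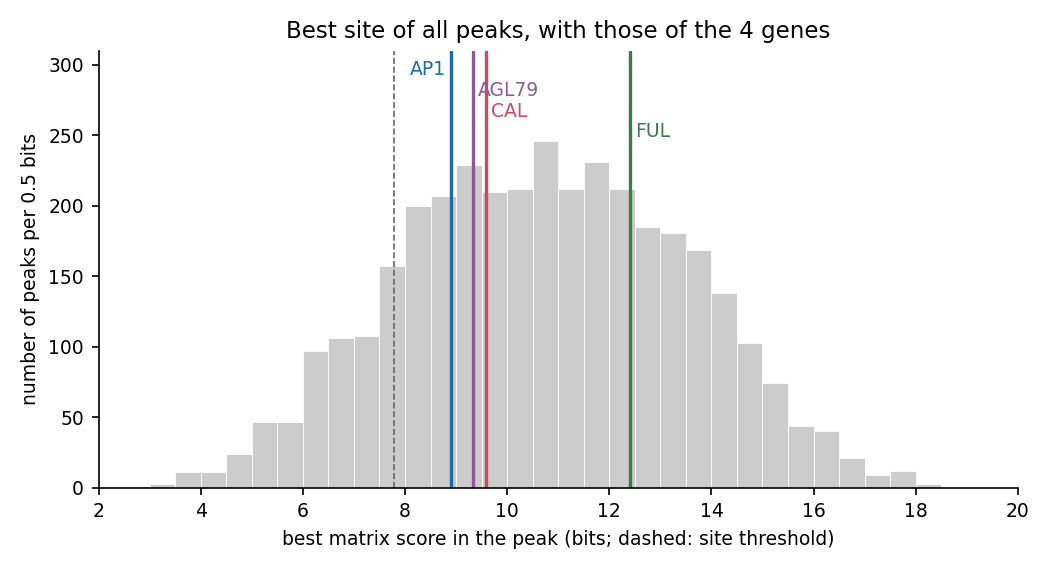
Number of peaks (y axis) by the best matrix score in the peak (x axis, bits, bins of 0.5), with the 4 genes as coloured lines and the site threshold of 7.79 bits dashed. AP1 (8.90), AGL79 (9.33) and CAL (9.59) lie left of the median of 10.7 bits and FUL (12.4) to its right.

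None of the 4 peaks held a canonical CArG box on either strand, a form that 16% of all peaks held. A looser form, with C or T at the second and A or G at the ninth base, was in 56.1% of all peaks and in none of these. Cores with at most 1 mismatch to the canonical form were found in 80% of all peaks and, of the 4, in that of FUL alone. The looser forms include the canonical one, and all were searched as letters only. The peaks of AP1, CAL and AGL79 thus belonged to the minority without a core of any of these forms. Their GC content, between 30.8% and 34.5% over the 4 genes, was near that of all peaks (32.5% ± 5.1, SD, n = 3552).

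The distance of the best site from the midpoint also set FUL apart. Over all peaks the median distance was 17 bp and 68.5% of best sites lay within 25 bp. In FUL the distance was 16 bp. It was 43 bp in AP1, 52 bp in AGL79 and 59 bp in CAL, and the last 2 were beyond the 50 bp that held 86.1% of all best sites. A site was then counted wherever the score reached 7.79 bits, a threshold set so that the genome holds 1 site per 2000 bp. By this measure AP1, FUL and AGL79 had 1 site in the peak, as 54.5% of all peaks had, and CAL had 2, as 24.7% had.

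**Figure D3:**
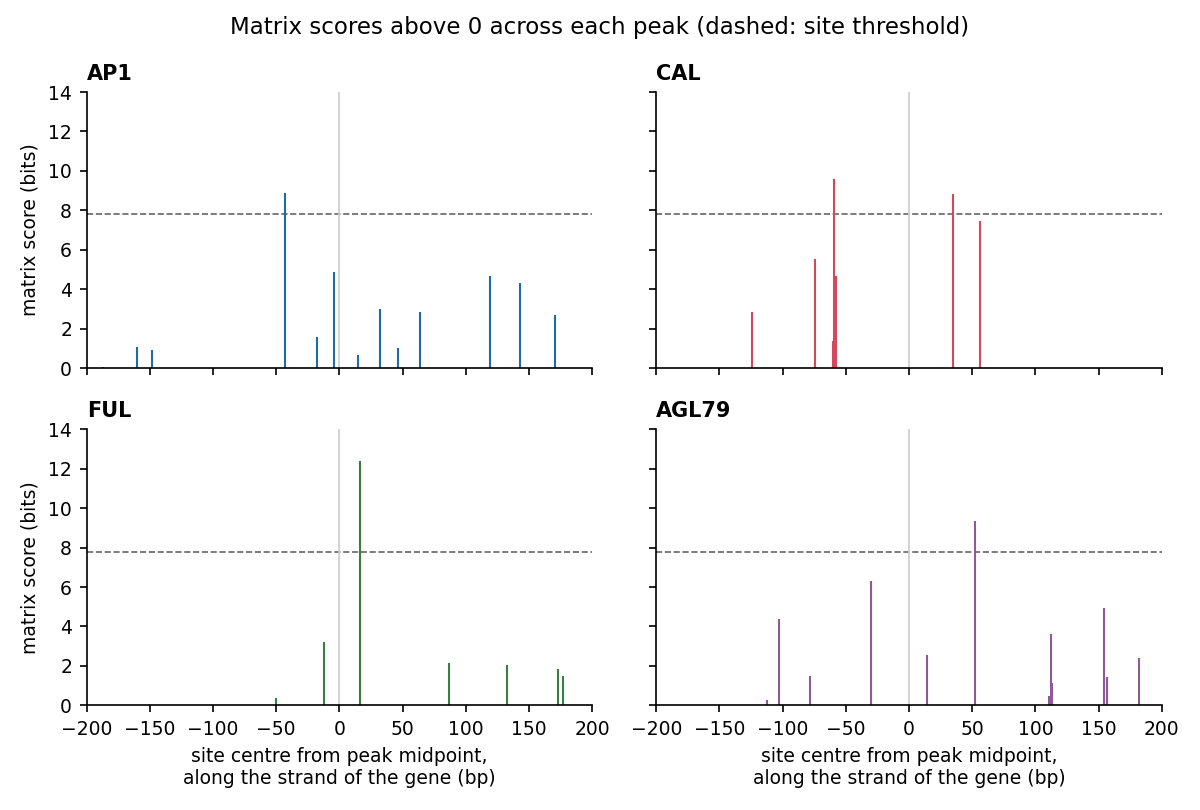
Matrix scores above 0 (y axis, bits) by position across the 400 bp of each peak (x axis, bp from the midpoint along the strand of the gene), with the threshold of 7.79 bits dashed. FUL has a lone high stem 16 bp from its midpoint, CAL has a stem above the line on each side of its midpoint, and AP1 and AGL79 each have 1, at 43 and 52 bp.

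The stretch of CAL is shown because it holds both of its sites, the first in coding exon 1, where the DNA also codes for the MADS domain, and the second in intron 1. It covers chr1:9103199-9103428 on the minus strand, from 216 to 445 bp after the start, with both cores in capitals.
CAL: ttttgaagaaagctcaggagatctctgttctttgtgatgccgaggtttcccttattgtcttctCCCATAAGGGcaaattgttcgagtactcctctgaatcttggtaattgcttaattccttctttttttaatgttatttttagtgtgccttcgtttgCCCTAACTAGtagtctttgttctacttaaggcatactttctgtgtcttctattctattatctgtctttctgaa
The exon site scored 9.59 bits and the intron site 8.81, with 94 bp from centre to centre and 84 bp between the cores. They lay on opposite sides of the midpoint, at 59 and 35 bp from it.

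The exon site of CAL has a near copy in AP1 that was not in a peak. Over 198 aligned bases the CAL peak and the beginning of AP1 were 90.4% identical, from 257 to 457 bp after the start of AP1. The aligned site in AP1, in coding exon 1 and 397 bp after the start, was
AP1 exon 1: tctCCCATAAGGGaaa
and differed by C14A, with positions counted from 1 at the 5′ end of the CAL site. That change lies outside the core, and the AP1 copy scored 10.3 bits, above the 9.59 bits of the CAL site in the peak. The list gives peaks of 400 bp, so which sequence in the CAL peak the complex contacted is not known. Only 0.0182% of all protein-coding windows held a sequence with at most 1 difference from the CAL site. In the same aligned exon of AGL79 the 16 bp differed by A7C, T8C and G11A and scored 2.27 bits, and the aligned stretch of FUL (83.1% identity over 183 bases) held no 16 bp above 0.748 bits. Neither of those was in a peak. The intron site of CAL lay outside these alignments, which ended 341 bp after the start of CAL or earlier.

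The peak of AP1 in turn resembled a stretch upstream of CAL that held no listed peak. The part of the peak between 1716 and 1571 bp upstream of AP1 aligned to the DNA from 971 to 830 bp upstream of CAL, with 110 of 135 aligned bases identical (81.5%). The AP1 stretch (chr1:25987916-25988051) and its relative upstream of CAL (chr1:9104474-9104615), both on the minus strand, are shown for comparison, with the core of the AP1 site in capitals.
AP1: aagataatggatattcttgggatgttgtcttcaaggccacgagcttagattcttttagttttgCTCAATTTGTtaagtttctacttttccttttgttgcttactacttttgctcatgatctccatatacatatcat
CAL: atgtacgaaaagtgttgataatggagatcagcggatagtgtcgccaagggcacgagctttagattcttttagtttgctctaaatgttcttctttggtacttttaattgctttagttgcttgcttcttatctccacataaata
The site of AP1 lies in the aligned part, but gaps left 9 of its 16 bases paired with a base of CAL. The highest score of any 16 bp in the CAL stretch was 3.76 bits, below the threshold of 7.79. A second relative of the AP1 peak lay from 442 to 383 bp upstream of AGL79 (83.3% of 60 aligned bases), where the highest score was 0.785 bits and no peak was listed. This alignment covered AP1 from 1579 to 1515 bp upstream and held no base of the AP1 site. AP1 and CAL thus had their listed peaks at different members of 2 shared stretches, AP1 upstream and CAL at exon and intron 1. Neither gene had a listed peak at the place aligned to the peak of the other. The list cannot tell weakly bound places from unbound ones, so a difference in binding was not tested.

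The stretch around the FUL site (chr5:24504990-24505125, minus strand, 1144 to 1279 bp after the start) is shown because its site had the highest matrix score of the 4.
FUL: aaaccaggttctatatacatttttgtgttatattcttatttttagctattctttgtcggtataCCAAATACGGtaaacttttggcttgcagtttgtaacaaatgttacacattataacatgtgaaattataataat
The FUL peak aligned with the other 3 genes only over 32 to 64 bases at its end, where intron 1 meets coding exon 2. The FUL site was outside those alignments. The AP1 peak, aligned over 135 bases with CAL, aligned over only 32 with FUL. The AGL79 peak had no alignment longer than 56 bases with the other genes, and the 16 bp of its site are all that is printed of it because they lie in the 5′ UTR. Among 1373 background windows, 38.5% aligned to the AGL79 peak with a score as high as that of CAL. For AP1 the share was 49.4% and for FUL 61.8%. For the FUL peak these shares were at most 0.437%, and for the AP1 peak against FUL the share was 39.9%.

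The sites of AP1, CAL and FUL had no exact copy elsewhere in the genome, and that of AGL79 had 1, which was not in a peak. With up to 2 differences allowed, and the site itself left out, 9 of 320 copies of the AP1 site were in a peak (2.81%), 54 of 1458 for AGL79 (3.70%), 4 of 44 for CAL (9.09%) and 22 of 122 for FUL (18.0%). For each gene 3 other peaks whose best site had the fewest differences were named by rule, with ties settled in favour of the higher score, so the scores given for them lean high. For AP1, the peaks upstream of AT5G28900, AT5G28850 and AT5G50830 shared 1 site with 15.2 bits, differing by C6A and T13G.
near AT5G28900, AT5G28850 and AT5G50830: ttgCTAAATTTGGtaa
The CAL site had relatives upstream of TOE3, a repressor of flowering of the AP2 family (C2T and G11T, 14.9 bits), downstream of the formin gene FH3 (C2T and T8A, 14 bits) and upstream of AIL7 (3 differences, 15 bits).
upstream of TOE3: tttCCCATAATGGcaa
The FUL site was matched with 2 differences in introns of AT3G05180 and AT1G09490 (15.2 bits each) and upstream of SPX1, which acts in the phosphate response (14.2 bits). AGL79 had relatives in AT2G31790 (C3G, 10.9 bits), upstream of AT1G68580 (T2G, 7 bits) and upstream of ZIP2, a metal transporter gene (C3T and A4C, 16.1 bits).

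Most sites in the windows were not in a peak. The 4 windows held 18 sites, of which 5 were in the 4 peaks and 13 were outside. AP1 and AGL79 had 6 sites each, more than 87.6% of all protein-coding windows, and CAL and FUL had 3 each, the median of all windows. In CAL and FUL the site with the highest score of the window was the one in the peak. This was so for 56.0% of the 4344 genes with exactly 1 peak. In AP1 the highest score was 11.3 bits, at 1242 bp upstream of the start, between the peak and the gene, and in AGL79 it was 11.4 bits, in intron 1 at 528 bp after the start. Both were above the 8.90 and 9.33 bits of the sites in their peaks.
AP1, 1242 bp upstream, not in a peak: tttCTAAAATTAGtat
AGL79, intron 1, not in a peak: ttgACATATTGGGaaa
Sites of such scores outside a peak were the rule in the genome. Of all sites from 7.79 to 10 bits, 4.36% were in a peak, rising to 9.71% from 10 to 12 bits, 23.2% from 12 to 14 bits and 49.4% (46.1% to 52.8%, exact 95% binomial interval) from 14 bits. No site in the 4 windows reached 14 bits, and only that of FUL exceeded 12.

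**Figure D4:**
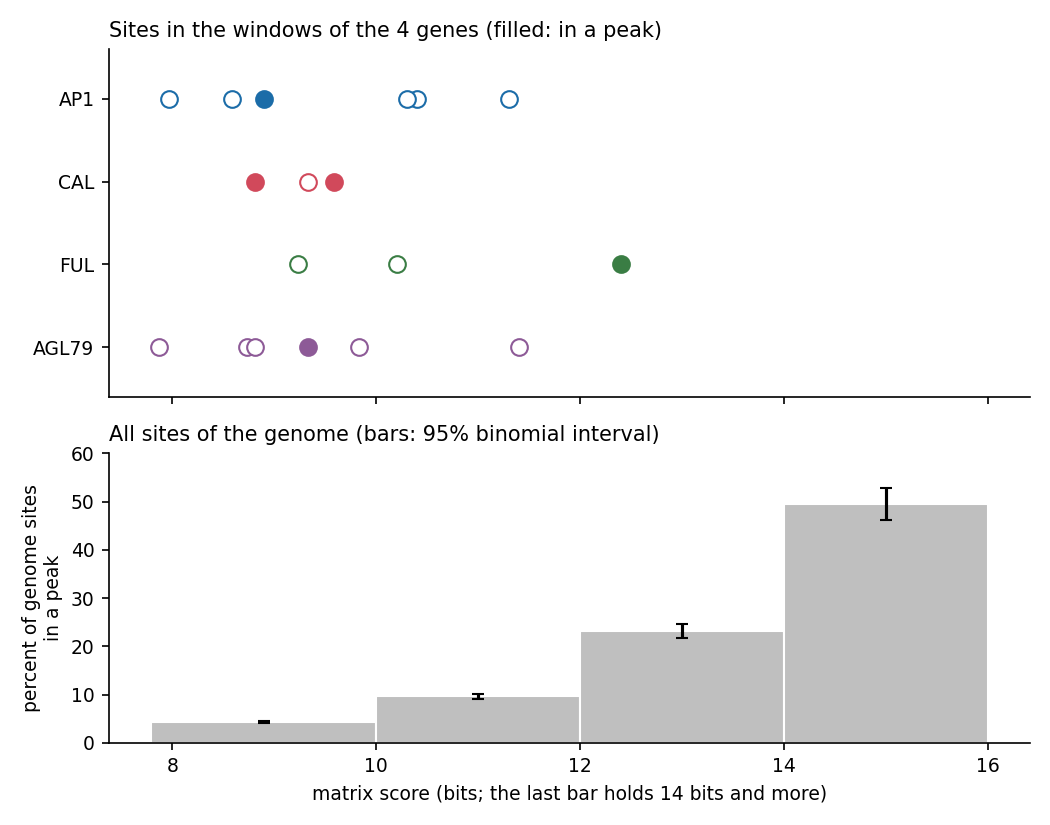
Upper panel, scores (x axis, bits) of the 18 sites in the windows of the 4 genes, filled where the site is in a peak; lower panel, percent of all sites of the genome that are in a peak (y axis) by score, with 95% binomial intervals. The filled points of AP1 (8.90) and AGL79 (9.33) have open points to their right, those of FUL (12.4) and CAL (9.59) do not, and the percentage rises from 4.36 to 49.4.

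Canonical boxes were present in these windows but lay away from the peaks. AP1 had 2, in intron 1 at 573 bp after the start (10.4 bits) and downstream of the gene (5.63 bits). FUL had 2, at 2260 bp (9.23 bits) and 1786 bp (5.75 bits) upstream of the start. AGL79 had 1, in a coding exon at 2208 bp after the start (6.42 bits), and CAL had none, while 33.5% of all protein-coding windows held at least 1. None of the 5 boxes was in a peak, and in the whole genome 595 of 7741 were (7.69%). The nearest of them to a peak midpoint of its own gene was that of AP1 in intron 1, 2164 bp away.
AP1 intron 1, not in a peak: cttCCATTTTTGGatt
FUL, 2260 bp upstream, not in a peak: ggtCCAATTTTGGtat

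The clade genes were the closest protein-coding genes to these peaks. The nearest protein-coding gene start was that of the clade gene in all 4 cases. Only the CAL peak was also in the window of another protein-coding gene, AT1G26320, whose start lay 1737 bp from the midpoint on the other strand. The start of AT1G69150, the neighbour of AP1, was 7495 bp from the midpoint of the AP1 peak. Those of AT3G30247 and AT3G30280, on both sides of AGL79, were 20160 bp and 5480 bp away, and none of these 3 genes had a peak in its window. FUL lies between RLK1, which was not bound, and COB, a gene of cell expansion with 1 peak of its own. The next peak of the list was 8295 bp from that of FUL, 10460 bp from that of CAL, 24311 bp from that of AP1 and 63193 bp from that of AGL79.

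The proteins these genes encode relate to the complex used, since its AG chain carried the I domain of AP1. In the translated RefSeq models, the MADS domain of AP1 (residues 1 to 57) was identical to that of CAL at 91.2% of positions, to FUL at 94.7%, to AGL79 at 87.7%, to SEP3 at 80.7% and to AG at 71.9%. The I domain (AP1 residues 58 to 92) was less alike. Identity to AP1 was 85.7% in CAL, 54.3% in FUL, 42.9% in AGL79, 31.4% in SEP3 and 17.1% in AG. AP1 and CAL were thus the closest pair of the clade in the I domain and in the whole protein (77.7%), while in the MADS domain AP1 was closer to FUL.

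Genes that act on the clade or are acted on by it were taken from lists of known regulators, which overlap. Among 18 activators, 6 had a peak (33.3%, against 18.0% of all protein-coding genes), with a median best score of 10.6 bits over their 9 peaks. SOC1, a MADS integrator of flowering signals, had 3 peaks, all upstream (27, 718 and 1992 bp from its start), the first with 14.1 bits. BOP2, which acts in flower meristem identity, had 2 (up to 14.1 bits), and its paralogue BOP1 had 1 in intron 1 (10.6 bits). The florigen gene FT had 1 peak 1887 bp upstream (11.4 bits) and FD, whose bZIP protein joins FT to activate AP1, had 1 in its 3′ UTR (8.78 bits). The other 12 activators were not bound, and LFY, named here after its value was seen, was among them. Among 10 repressors, 7 had a peak (70.0%, against the same 18.0%), with a median of 11.6 bits over 10 peaks. These included SMZ (up to 16.5 bits) and SNZ (15.5 bits), both flowering repressors of the AP2 family, TOE3 (14.9 bits), and SVP, a MADS repressor of flowering bound in intron 1 (11.5 bits). AG had 2 peaks, 160 bp upstream of the start (8.29 bits) and in intron 2 (14.8 bits), the intron known for its flower-specific control elements.

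Of 17 genes known to be controlled by AP1, CAL or FUL, 11 had a peak (64.7%, against 18.0%), with a median of 11.8 bits over 15 peaks. Beside SMZ, SNZ and TOE3, these included SHP2, a gene of the fruit valve margin that FUL keeps out of the valves (252 bp upstream, 15.9 bits), AGL24, a flowering gene that AP1 turns off in young flowers (intron 2, 15.1 bits, 4 sites), and SAUR10, an auxin response gene (1266 bp upstream, 14.9 bits). Across related MADS clades, peaks were found in 4 of 6 SOC1 clade genes, 2 of 4 AG clade genes and 1 of 6 genes of the SEPALLATA and AGL6 clade, SEP3 itself, against 18.0% of all protein-coding genes. With 1000 bp upstream and the gene as the window, 4 activators, 4 repressors and 7 of the controlled genes had a peak, and 9.91% of all protein-coding genes did. The counts are not separate, since TOE1, TOE3, SMZ, SNZ, SVP, SOC1 and FD were counted as controlled genes and also as activators or repressors. The lists were made with earlier results known and no list was tested, so these counts are a description. Beside them, the AP1 and FUL clade had every gene bound, by 1 peak each, and a median best score of 9.46 bits, under those of all these lists other than the SEPALLATA and AGL6 clade (7.62 bits over 3 peaks).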

How the data were processed

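Seq-DAP-seq of SEP3-AG(IAP1) was done in 3 replicates of 1 group. According to the methods, the authors removed adaptors with NGmerge, mapped reads with bowtie2 to TAIR10 without organelle genomes, removed duplicates with samtools and ran MACS2 on each replicate with input DNA as control. MSPC then gave the peaks found across replicates. Those with more than 1 maximum were split, and every peak was set to 400 bp around its maximum. The deposited list gives positions alone, with no counts or scores, so the reads behind each peak are unknown, strict calling sets which sites appear, and the fixed width limits how many sites a peak can hold. The submitters' notes name Bowtie2, SAMtools, MACS2 and TAIR10. The sources used here give no tool versions.

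Genes, introns and sequences came from the RefSeq annotation and genome of TAIR10.1, whose 5 nuclear chromosomes carry the TAIR10 coordinates used by the authors. All listed genes were matched by identifier. The matrix was a palindrome fitted by expectation maximisation (30 iterations, at most 1 site a peak), starting from a CArG core with flat flanks, and each chromosome was scored with a matrix from the other 4. Both strands are covered by the palindrome. Sequences were aligned locally with a match score of 2, a mismatch score of -3, a gap opening of -5 and a gap extension of -2. Proteins were translated from the annotated models and aligned with BLOSUM62. The intervals are exact binomial and cover counting error only.

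The members and gene lists were chosen with earlier results of these data known, and no test was made. The genes named were the 4 members, their neighbours and any other gene whose window held a member peak, up to 5 bound genes per list by highest score, and for each member up to 3 peaks with the most similar site (ties by higher score). Steps were tested on simulated data. Alternatives were other gene windows, matrices, thresholds, box forms and an alignment with BLOSUM80. Python 3.11.15, numpy 2.4.6, scipy 1.17.1, Biopython 1.88 and matplotlib 3.10.9 were used. Binding intensities and the SEP3-AG peaks were not analysed here.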

Additional observations from a re-analysis of the deposited data

How the results depend on the processing

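All 4 genes stayed bound, by 4 peaks, under every wider window, by nearest gene start and by any or whole overlap, and 3 of 4 (without AP1, whose peak is 1591 bp upstream) with 1000 bp upstream or the gene body alone. The share of all protein-coding genes bound was then 9.91% with 1000 bp upstream to the gene end, 5.6% for the gene body, 23.0% with 5000 bp upstream, 22.8% with 3000 bp downstream, 11.7% by nearest start, 19.1% by any base and 17.2% by the whole peak. With 1000 bp upstream, 4 activators, 4 repressors and 7 genes downstream of the clade were bound. With a matrix of the core alone, best scores were 7.44 bits for AP1, 8.32 for CAL, 10.3 for FUL and 6.22 for AGL79, and these exceeded 20.7% of peaks for AP1, 72.7% for FUL and 8.76% for AGL79. With a matrix from all peaks FUL scored 12.25 bits (69.1%) and AGL79 9.54 (35.6%), and in the central 200 bp AP1 exceeded 29.4%, CAL 37.7% and AGL79 35.2%. At 1 site per 1000 bp the windows of AP1, CAL, FUL and AGL79 held 12, 8, 9 and 11 sites and 4.88% of genome sites were in a peak. At 1 site per 5000 bp AP1 held 3, CAL 1 and AGL79 2, and 11.9% were in a peak. The looser CArG form gave 8, 5, 6 and 6 boxes and the form with up to 1 mismatch 14, 11, 16 and 9. No paired analysis was possible because the list joins the 3 replicates, and for the same reason none could be left out. Peak height and depth per site are unknown, so weakly bound places below the calling threshold of the authors cannot be told from unbound ones, and the absence of a peak is a statement about this list.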
